A study of Rattus norvegicus with 85 samples.

Results

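The 13 oocyte samples of the series (6 from control rats and 7 from rats exposed to pre-reproductive stress, PRS) were compared with 23 adult brain samples, 11 of the prefrontal cortex (PFC) and 12 of the amygdala (AMY). These 36 of the 85 samples were chosen by their labels alone: tissue Oocytes or an age of P60, generation F0. All came from female Sprague-Dawley rats. The adult PFC set held 5 control and 6 PRS samples and the adult AMY set 5 control and 7 PRS samples. PRS animals went through a week of unpredictable stress in adolescence. Per the study's methods, the females whose PFC and AMY were taken were sacrificed with their controls 2 weeks after it ended. The oocyte samples carry the age label P0 although their generation is that of the adults. The methods of the study state that oocytes were taken from unmated control and PRS females after a hormone treatment, which the brain samples are not said to have had. How many oocytes or rats went into a sample is not given in the sources used here, and the labels do not show which PFC and AMY samples came from 1 rat, so p-values measure the spread between these samples. The question was whether transcripts that are edited in the brain are edited to the same level in female germ cells.

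A-to-I editing is the deamination of adenosine to inosine in double-stranded stretches of RNA by ADAR enzymes. Inosine is read as guanosine, so an edited base appears as G in cDNA and, in a coding exon, can change the amino acid. Many of the best known recoding sites lie in receptors and channels of neurons, where they alter ion flow or G protein coupling, and most other sites lie in untranslated regions (UTRs). A growing oocyte stores maternal mRNA and uses it after transcription has stopped. Here each target transcript was amplified in a multiplexed microfluidic PCR, sequenced, and the editing level taken as the percent of reads with G at a listed site. Positions are those of the rat genome build rn4.

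The amplicons on which the comparison turns are defined by their primers, and the gene-specific ends of those for 3 sites, of which 1 recodes Copa, 1 is the 3′ UTR site of Commd2 and 1 is the higher site of Pum2, are shown for that reason (5′ to 3′, the shared adapter tails left off, all letters in lower case because no part is singled out). The site of Copa lies on chromosome 13 at 88088487, that of Commd2 on chromosome 2 at 146914339 and that of Pum2 on chromosome 6 at 32231647.
Copa, first primer: ggtatcagctagcctggac
Copa, second primer: ccgatacaataaggggcatagt
Commd2, first primer: tggtttggtgattatgagcact
Commd2, second primer: tgtgtaccacatgtgttcagt
Pum2, first primer: tggtaggtctacaaccccata
Pum2, second primer: ttgcatgatagtttgtgaattacc

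Far fewer transcripts could be measured in oocytes than in brain. Of 179 listed sites, oocyte samples held 50 or more reads at 13 to 71 (37.4 ± 17.7, SD, n = 13), PFC samples at 137 to 147 (145 ± 2.90, n = 11) and AMY samples at 133 to 148 (143 ± 4.60, n = 12). The groups did not overlap, and the difference in means had the smallest p that 100000 resamples can give against either region (two-sided permutation test, p = 1e-05). Reads summed over the listed sites ranged from 18705 to 424482 in oocytes and from 150931 to 3323660 in brain, but depth alone did not order the samples: the oocyte sample with the most reads, 166, had 71 sites, and the brain sample with the fewest, PFC 29 with 150931 reads, had 137. Reads per amplicon after multiplex PCR are no measure of expression, and fewer cells and less RNA per cell cannot be told apart.

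**Figure D1:**
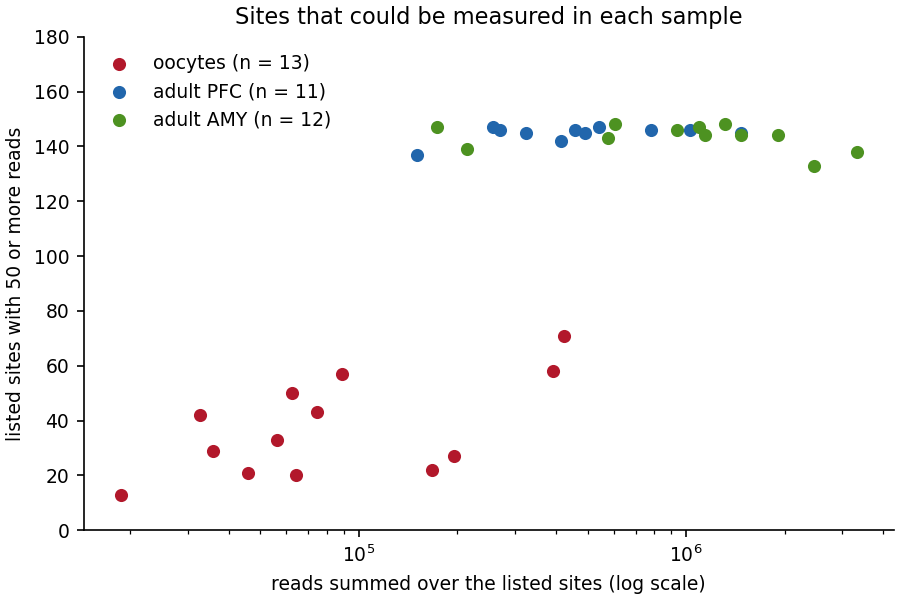
Number of listed sites with 50 or more reads in each sample (vertical axis) against the reads summed over all listed sites (horizontal axis, log scale); each point is 1 sample of oocytes, adult PFC or adult AMY. No oocyte sample reached more than 71 sites, and no brain sample had fewer than 133.

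The targets counted as neuronal served as a check of the oocyte label, since no target is a marker of oocytes. They are not all limited to neurons: the study states that Htr2c is also high in the choroid plexus. Htr2c, the serotonin 2C receptor, Gria2, an AMPA receptor subunit, Kcna1, a potassium channel, and Celf4, an RNA-binding protein of neurons, reached 50 reads in 0 of 13 oocyte samples. The other neuronal genes checked did reach 50 reads in some. These were Grik2 in 6 of 13, Gabra3 in 3, Gria3 and Cadps in 2 each, and Gria4 and Grik1 in 1 each. On the wider list of 36 neuronal sites, 15 had 50 reads in no oocyte sample. Among all 179 listed sites 71 did, of which 33 lie outside the study's table. Whether neuronal targets lacked reads more often than others was not tested. The best covered Htr2c site had 1 to 41 reads in oocytes against 900 to 10941 in PFC. The best covered Gria2 site had 2 to 48 reads in oocytes against 1881 to 11961 in PFC. Over the 10 neuronal genes of the marker list, the share of all reads was 0.0448% to 1.56% in 9 oocyte samples and 10.4% to 13.6% in the other 4 (163, 170, 4-2s and 167), against 16.4% to 24.5% in PFC and 16.9% to 23.3% in AMY. In those 4 samples 1 or a few amplicons held the reads: the glutamate receptor subunit Grik2 had 10633 reads at 1 site in sample 163 and 3570 at another in sample 167, and Cadps, a regulator of vesicle release, had 1879 in sample 170. The part of neuronal RNA in the results was not tested, and counts without these 4 samples are given beside the calls.

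Sites were compared where 3 or more samples of oocytes, of PFC and of AMY each had 50 reads or more. This left 61 sites in 32 genes and intergenic stretches, all in the study's own table of 146 edited sites, with a median of 65.0 to 6099 reads per site in oocytes. The 9 sites with 3 oocyte samples are the weakest ground, and 12 sites had 10 or more. The test was the exact Mann-Whitney U test, two-sided and adjusted over the 61 sites at an FDR of 0.1. Oocytes differed from PFC at 33 sites (54.1%), of which 31 were lower and 2 higher in oocytes, and from AMY at 35 (57.4%), of which 33 were lower and 2 higher. Against both regions pooled, where samples may share a rat and p-values can be too small, 40 sites differed (65.6%).

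At 29 sites (47.5%) oocytes were lower than both regions and at 2 (3.28%) higher than both. At 28 of the 29 lower sites the median oocyte level was under 1%, and at 16 of them no oocyte sample reached 1%. At 14 of the 29 the oocyte samples overlapped with neither region. Over all 61 tested sites, oocytes were without overlap at 17 against PFC, 19 against AMY and 15 against both pooled. Each of those sites was also called in that comparison, so the absence of overlap is not separate from the calls. Of 44 tested sites with a brain level of 1% or more, 35 had an oocyte median under 1%. Sample by sample, 66.7% to 100% of such sites lay under 1% in oocytes, 6.82% to 48.8% in PFC and 2.27% to 9.76% in AMY. The PFC sample at 48.8% is PFC 29, and the next highest PFC sample was at 16.3%. Without it, 33 sites were called against PFC, and 32 against both regions. Without the 4 oocyte samples with many neuronal reads, 46 sites could be tested and 22 were called against both regions, 20 lower and 2 higher in oocytes.

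**Figure D2:**
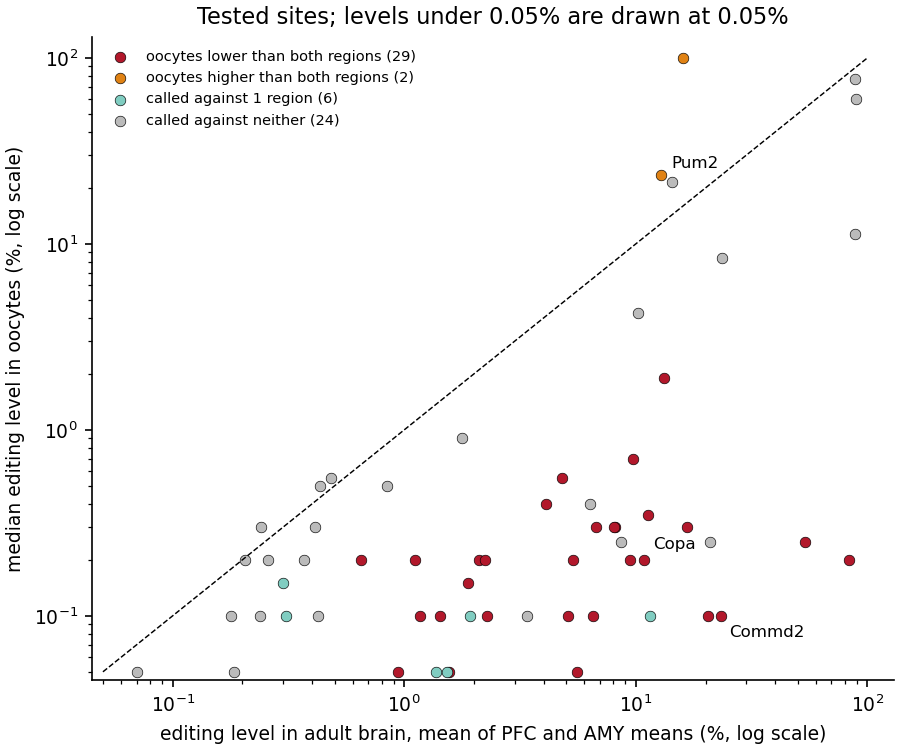
Median editing level in oocytes against the mean of the PFC and AMY means for the 61 tested sites (both in percent on log scales, levels under 0.05% drawn at 0.05%); colour gives the call and the dashed line marks equal levels. The 29 sites called lower sit far under the line, nearly all at an oocyte median under 1% whatever the brain level, and the 2 sites called higher lie above it.

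Library numbers in the file names fall into sets of 48 consecutive numbers, and these sets divide the tissues. All 11 PFC libraries lie in a first set without oocytes, whereas 11 oocyte libraries lie in a later set and 2 in another, so for PFC the set and the tissue cannot be told apart. For AMY, 8 libraries lie in the first set and 4 in the one that holds most oocytes. Between the 11 oocyte samples and these 4 alone, 49 of the sites could be tested, and 17 were called, all of them also called against the 12. Of the 49, 27 had been called against all AMY samples, and each of the 27 kept its direction.

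Recoding sites are described first. In broadly expressed genes with a recoding site, 9 of 21 sites could be tested. Oocytes were lower against both regions at 5 and against AMY alone at 2, and 2 were called against neither. Over all 61 tested sites, 29 (47.5%) were lower against both regions, so 5 of 9 is near the overall share. The median oocyte mean of the 9 sites was 0.143%, against 1.73% in PFC and 2.45% in AMY.

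Copa encodes the alpha subunit of the coatomer, which coats vesicles that return from the Golgi to the endoplasmic reticulum. Its isoleucine to valine site was at 0.0% to 0.2% in 7 oocyte samples, at 8.8% to 13.2% in PFC and at 8.8% to 14.3% in AMY. The means were 0.143% ± 0.0976, 10.6% ± 1.49 and 11.2% ± 1.34 (adjusted p = 0.000426 and 0.00022, exact Mann-Whitney U test). The oocyte samples formed a tight group well apart from the brain.

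Ccni encodes cyclin I, and its arginine to glycine site (chromosome 14, 16452369) was measured in 12 of 13 oocyte samples. Levels ran from 0.0% to 0.6% there (median 0.10%), from 1.2% to 2.8% in PFC and from 1.2% to 4.2% in AMY, again without overlap (adjusted p = 4.51e-05 and 2.26e-05, exact Mann-Whitney U test). Azin1, whose product holds off the degradation of ornithine decarboxylase, had a serine to glycine site (chromosome 7, 74162517) at 0.143% ± 0.0787 in 7 oocyte samples against 0.609% ± 0.176 in PFC and 0.691% ± 0.302 in AMY (adjusted p = 0.000274 and 0.000192, exact Mann-Whitney U test). This difference is small in percentage points, yet no oocyte sample exceeded 0.2% and no brain sample fell under 0.3%.

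Son, a cofactor of splicing, had 4 tested sites close together on chromosome 11. The arginine to glycine site at 31628548 was at 0.075% ± 0.15 in 4 oocyte samples, 3.88% ± 1.08 in PFC and 7.24% ± 14.5 in AMY (adjusted p = 0.00532 and 0.00838, exact Mann-Whitney U test). The wide spread in AMY came from 1 sample, AMY 2, at 53.0%, while the AMY median was 3.4%. In a permutation test of means, which reads that sample at its full height, the AMY call was lost (adjusted p = 0.392).

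**Figure D3:**
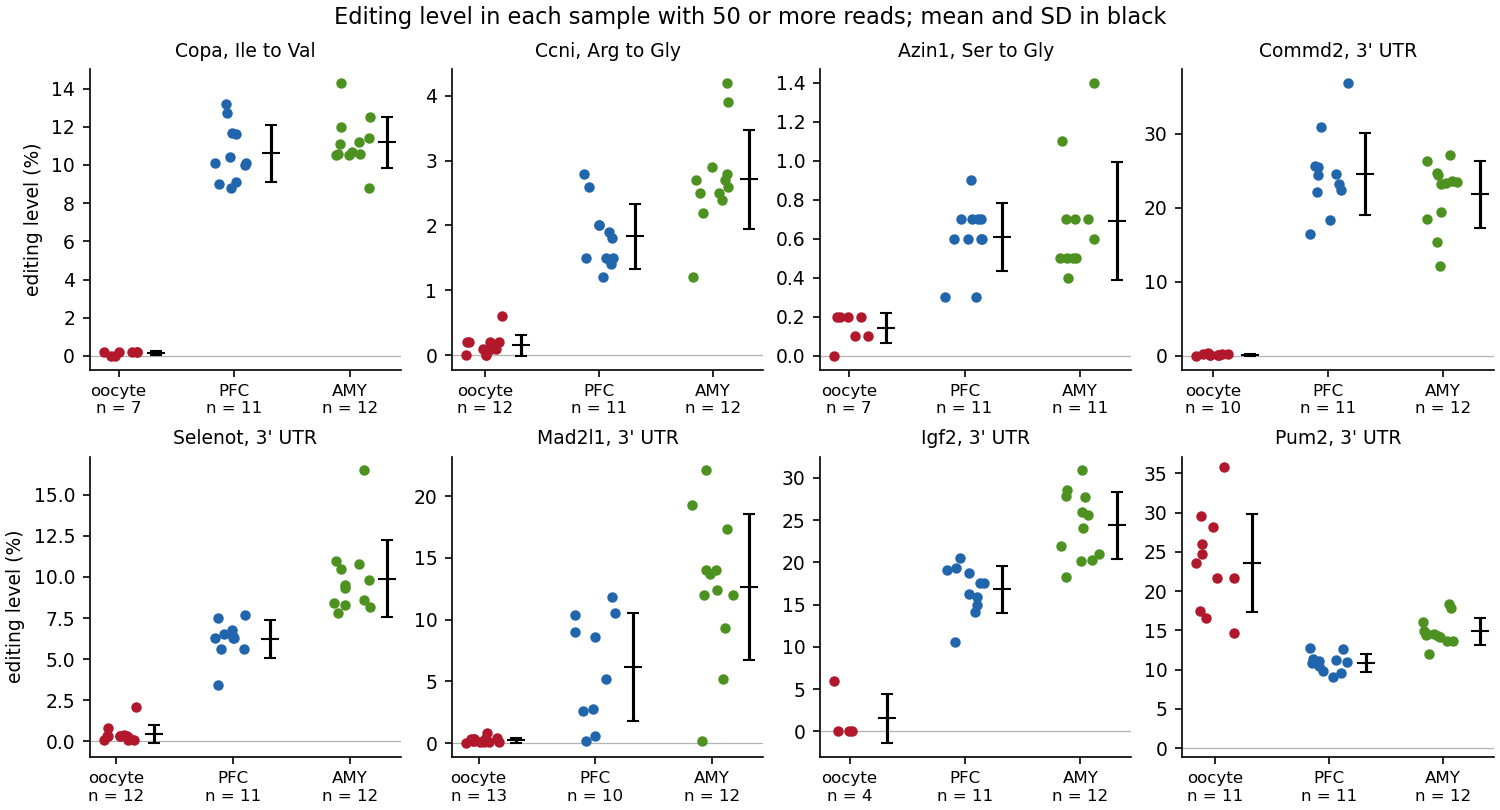
Editing level (percent of reads) in every sample with 50 or more reads at 8 named sites, for oocytes, PFC and AMY, with the mean and SD in black and the number of samples under each group. Oocytes lie near 0% at 7 of the sites, apart from 1 sample at 5.9% for Igf2 and 1 at 2.1% for Selenot, and above PFC for Pum2.

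Of the neuronal receptors, channels and their partners, 36 sites were listed and 8 could be tested. Oocytes were lower than both regions at 3, and at 5 the exact Mann-Whitney U test called neither region. Over all 61 tested sites these counts were 29 and 24. Across all 61 sites the median difference between the oocyte mean and the mean of both regions was -0.93 percentage points, and over these 8 it was -13.8. The brain levels were unlike to begin with. Median PFC and AMY means were 45.6% and 44.4% over the 8 sites, and 3.88% and 4.46% over all 61. The 2 differences in points are therefore not on a like scale.

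Grik2 encodes the kainate receptor subunit GluK2, in which editing changes calcium permeability. At its isoleucine to valine site (chromosome 20, position 53408971) oocyte sample 163 gave 0.2% of 3975 reads, sample 167 gave 0.0% of 3570 and sample 169 gave 9.1% of 66, while brain samples ran from 77.3% to 89.6%. The oocyte mean was 3.10% ± 5.20 (n = 3) against 83.9% ± 3.40 in PFC and 82.7% ± 2.79 in AMY (adjusted p = 0.0152 and 0.00993, exact Mann-Whitney U test). The highest of the 3 was the sample with the fewest reads. The methionine to valine site at 53378637 was at 0.0%, 0.0%, 0.6% and 1.4% in 4 oocyte samples and at 3.4% to 8.4% in brain (adjusted p = 0.00319 and 0.00419, exact Mann-Whitney U test).

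Other Grik2 sites did not behave as a group. The glutamine to arginine position of the amplicon at 53378633 was at 19.3% in sample 163, on 10633 reads, but at 95.1%, 76.0% and 77.3% in samples 169, 170 and 165, on 81, 50 and 66 reads. The site at 53408958 was at 99.9% of 3906 reads in sample 163, where its neighbour in the same amplicon at 53408971 was at 0.2%, and at 0.0% of 3549 reads in sample 167. In PFC the means of these neighbours were 90.6% ± 3.31 and 83.9% ± 3.40. So within 1 oocyte sample, neighbouring positions of the same transcript were at opposite ends of the scale, whereas in brain both ran from 77.3% to 93.0%.

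Kcnma1 (chromosome 15, 322937), the pore-forming subunit of the BK potassium channel, was called lower in oocytes on ranks, with 0.0%, 0.1%, 0.5%, 0.6% and 0.6% in 5 samples, but sample 4-2s was at 97.3% of 586 reads. PFC ran from 2.9% to 5.6% and AMY from 3.0% to 7.7% (adjusted p = 0.0507 and 0.044, exact Mann-Whitney U test). The oocyte mean, 16.5% ± 39.6 (n = 6), was above both regions because of that sample. The call did not survive a minimum of 200 reads (adjusted p = 0.124 and 0.106 in the same exact test), which left out sample 169, nor the removal of sample 169, 163, 1-3c or 170 (adjusted p = 0.103 to 0.124 in the exact test). Without sample 166 the PFC call alone was lost.

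Gabra3 (chromosome X, 158405626), an alpha subunit of the GABA A receptor, was called against neither region, with 60.0% of 65 reads, 40.4% of 52 and 99.1% of 1946 in 3 oocyte samples, against means of 87.9% and 90.4% in PFC and AMY. The 6 unmeasured neuronal sites with the highest brain levels were the glutamine to arginine site of Gria2 (99.8% in PFC), the arginine to glycine sites of Gria3 (93.6%), Gria4 (63.7%) and Gria2 (54.2%), and 2 sites of Htr2c (91.3% and 82.7%). Gria3 had 50 and 65 reads in 2 oocyte samples, at 54.0% and 60.0%, and Gria4 had 52 reads in 1, at 38.5%. No statement on oocyte editing can be made at these sites.

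Where neuronal amplicons did reach 1000 reads or more in an oocyte sample, the levels were unlike the brain's. At neuronal sites with a brain level of 10% or more there were 12 such values from 5 oocyte samples: 10 lay under the lowest brain sample, 9 of these under 1%, 2 lay above the highest, and 0 fell within the range of brain samples. Over all listed sites with such a brain level, the neuronal ones included, 102 values had 1000 reads or more. Of the 102, 51 lay under the brain range, 28 within it and 23 above it, and 64 were under 1%. Cadps at 14280228 was at 0.4% of 1879 reads and 0.0% of 1708 in samples 170 and 4-2s, against 23.6% to 33.5% in brain. The calcium channel Cacna1d at 5405832 was at 0.3% of 2639 reads and 0.5% of 1826 in samples 166 and 170, against 16.9% to 30.5%. With 50 to 99 reads, the 10 values at such sites had a median of 57.0% and 0 were under 1%. Yet 9 of these 10 also lay under the lowest brain sample, 1 lay above the highest, and 0 fell within the range. Over all listed sites with such a brain level, 17 values had 50 to 99 reads, and 3 were under 1%. Of the 17, 14 lay under the brain range, 2 within it and 1 above it.

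In 3′ UTRs outside Ankrd28, 19 of 51 sites could be tested. Oocytes were lower than both regions at 10 and higher at 1, beside 29 and 2 of all 61 tested sites. Another 3 sites were called against 1 region and 5 against neither. Most of the levels sat near 0 in oocytes: 18 of the 19 sites had a median under 1%, and the other was Pum2. Among all 61 tested sites, 52 had an oocyte median under 1%.

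Commd2, a COMM domain protein, gave 0.0% to 0.4% in 10 oocyte samples on a median of 2796 reads, 16.5% to 36.9% in PFC and 12.1% to 27.1% in AMY. The means were 0.15% ± 0.108, 24.6% ± 5.59 and 21.8% ± 4.55 (adjusted p = 6.92e-05 and 4.72e-05, exact Mann-Whitney U test). No sample of either tissue came near the other's range.

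Selenot, which encodes selenoprotein T of the endoplasmic reticulum, has its site on chromosome 2 at 147928323 and was at 0.1% to 0.8% in 11 oocyte samples and at 2.1% of 237 reads in sample 170. PFC ran from 3.4% to 7.7% and AMY from 7.8% to 16.5%, so that the groups did not overlap (adjusted p = 4.51e-05 and 2.26e-05, exact Mann-Whitney U test). Igf2, insulin-like growth factor 2 (chromosome 1, 202908966), followed the same order with 0.0%, 0.1% and 0.1% in 3 oocyte samples and 5.9% of 51 reads in sample 170, against 16.8% ± 2.83 in PFC and 24.4% ± 4.00 in AMY (adjusted p = 0.00532 and 0.00419, exact Mann-Whitney U test).

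Mad2l1 encodes a protein of the spindle checkpoint, which also operates in meiosis, and its site at 96385781 on chromosome 4 was the 1 site with enough reads in all 13 oocyte samples. Oocyte levels ran from 0.0% to 0.8% (median 0.20%) on a median of 6099 reads. Brain samples were spread far more widely, from 0.2% to 11.8% in PFC and from 0.2% to 22.1% in AMY (adjusted p = 0.000587 and 0.000108, exact Mann-Whitney U test), so the groups overlapped at the low end. At a second site of the same UTR, 96385687, oocyte samples fell into 2 kinds: 7 lay at 0.0% to 0.3%, and 4 lay at 5.9% (164), 11.9% (167), 14.9% (166) and 23.3% (169). PFC was divided in the same way, with 4 samples at 0.0% to 0.1% and 5 at 3.5% to 27.1%, while in AMY 1 sample was at 0.1% and the others ran from 7.0% to 35.6%. The site was called against AMY (adjusted p = 0.0322) and not against PFC (adjusted p = 0.449, exact Mann-Whitney U test).

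Other genes with a 3′ UTR site lower against both regions were Atxn3, the deubiquitinase ataxin-3, Htra1, a secreted serine protease, Selenop, the selenium transport protein, Arhgdia and Hip1, which acts in endocytosis. Their oocyte medians were 0.0% to 0.4%, and the brain means ran from 1.01% in AMY for Atxn3 to 11.6% in AMY for Hip1. Hip1 alone had an oocyte sample above the brain, at 58.1%, and the highest oocyte value at the other 4 was 0.6%. An intergenic site on chromosome 3, at 154378446, was at 0.267% ± 0.0577 in 3 oocyte samples, 7.29% ± 5.18 in PFC and 8.99% ± 1.5 in AMY (adjusted p = 0.0316 and 0.00706, exact Mann-Whitney U test).

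Pum2 went the other way. It encodes a Pumilio protein, which binds 3′ UTRs and represses translation, and its own 3′ UTR carries the site. The 11 oocyte samples gave 14.6%, 16.6%, 17.4%, 21.6%, 21.7%, 23.6%, 24.7%, 26%, 28.1%, 29.5% and 35.8%. PFC ran from 9.1% to 12.7% and AMY from 12% to 18.3%. All oocyte samples lay above all PFC samples, and 8 of the 11 above all AMY samples. The means were 23.6% ± 6.22 (n = 11), 10.9% ± 1.13 (n = 11) and 14.9% ± 1.77 (n = 12), with adjusted p = 5.76e-05 and 0.000474 (exact Mann-Whitney U test). Reads were ample, with a median of 4211 in oocytes, 2718 in PFC and 4997 in AMY. Within the shared set of libraries the oocyte mean was 23.8% (n = 9) against 15.6% in the 4 AMY samples (adjusted p = 0.0968, exact Mann-Whitney U test). The SD among oocyte samples was larger than in brain, but no oocyte sample was near 0% or 100%.

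The 3′ UTR of Ankrd28, which encodes a regulatory subunit of protein phosphatase 6, holds 20 listed sites within 854 bases of chromosome 16, all of them tested. In oocytes 9 were lower than both regions, 1 was higher, 1 was called against AMY alone and 9 against neither. Over all 61 tested sites the counts were 29 lower, 2 higher, 6 called against 1 region and 24 against neither. Counted per level rather than per site, 66.7% of 159 oocyte values were under 1%, 27.7% between 1% and 90% and 5.66% over 90%. In AMY 93.3% of 239 values lay between 1% and 90% and 0.0% above, and in PFC 81.3% of 219 lay between and 0.457% above. Oocyte values thus sat mostly at the ends of the scale and brain values between them, as a description only, since neighbouring sites share reads. This was not particular to Ankrd28. At the other 41 tested sites, 87.0% of 261 oocyte values were under 1%, 11.5% between 1% and 90% and 1.53% over 90%. Between 1% and 90% lay 50.3% of 447 PFC values and 56.8% of 484 AMY values at those sites.

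**Figure D4:**
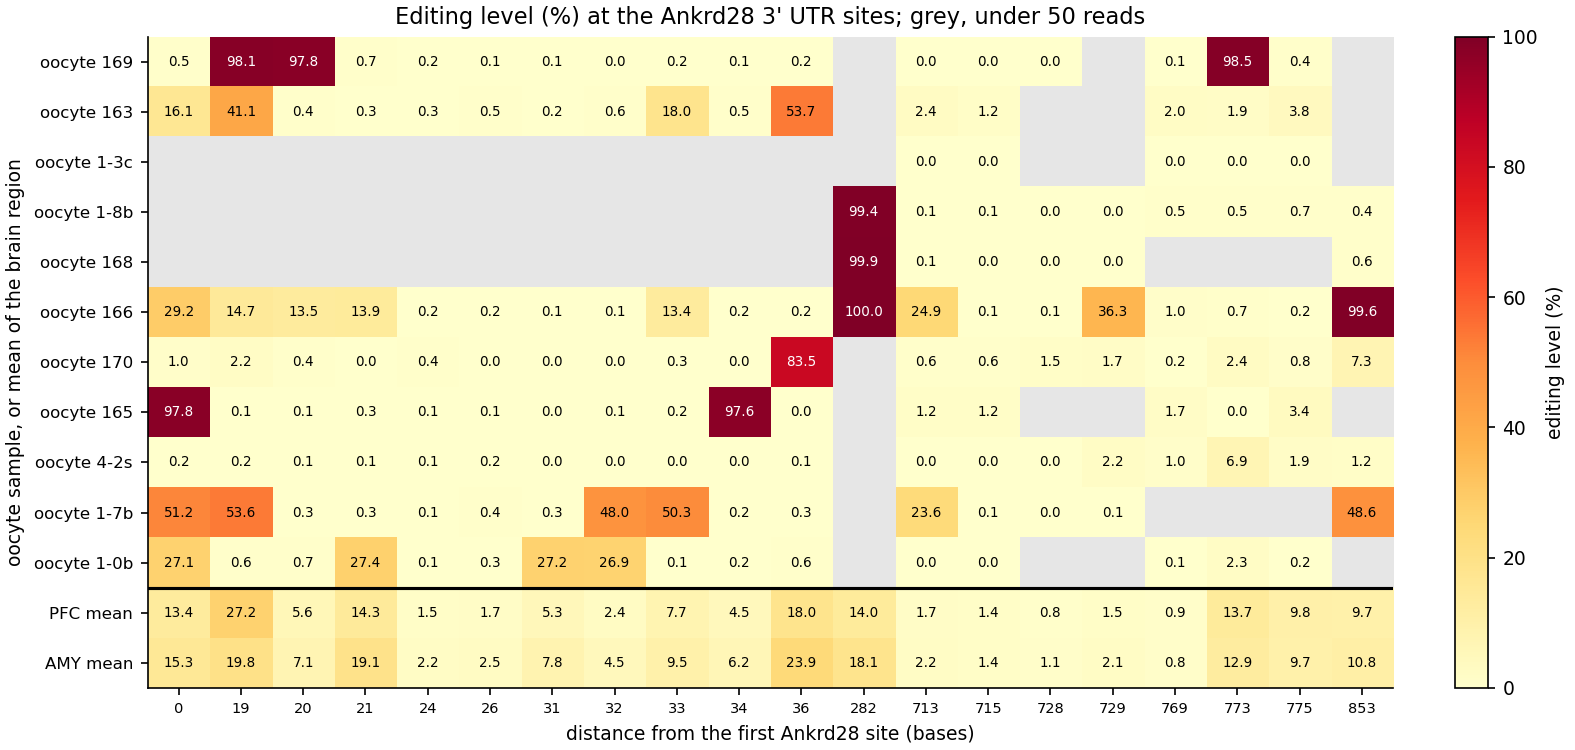
Editing level in percent at the 20 Ankrd28 3′ UTR sites, ordered by their distance in bases from the first (horizontal axis), in the oocyte samples with any site measured and as PFC and AMY means (rows below the line); grey cells had under 50 reads. Oocyte samples carry few sites at high levels and differ in which sites these are.

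The first 11 sites lie within 37 bases and were read together in 8 oocyte samples, on 270 to 11320 reads. In sample 165 the sites at 7168445 and 7168479 were at 97.8% and 97.6% and the other 9 at 0.3% or less. In sample 169 the adjacent sites at 7168464 and 7168465 were at 98.1% and 97.8%. In sample 4-2s no site exceeded 0.2%.

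In 3 other samples several sites had nearly the same intermediate level. Sample 1-7b had 51.2%, 53.6%, 48% and 50.3% at 7168445, 7168464, 7168477 and 7168478, and at most 0.4% at the other 7. Sample 1-0b had 27.1%, 27.4%, 27.2% and 26.9% at 7168445, 7168466, 7168476 and 7168477. Sample 166 had 14.7%, 13.5%, 13.9% and 13.4% at 7168464, 7168465, 7168466 and 7168478, beside 29.2% at 7168445. The remaining 2 samples did not share this feature. Sample 163, on the most reads, had 16.1%, 41.1%, 18% and 53.7% at 7168445, 7168464, 7168478 and 7168481, and sample 170 had 83.5% at 7168481 and at most 2.2% elsewhere. Between samples the site at 7168445 ran from 0.2% to 97.8%.

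The tests of single sites follow from this scatter. At 7168445 the oocyte mean was 27.9% ± 33.4 (n = 8) against 13.4% ± 5.55 in PFC and 15.3% ± 2.92 in AMY, and the call failed (adjusted p = 0.496 and 0.665, exact Mann-Whitney U test). The neighbouring 7168464, 7168465, 7168477, 7168478 and 7168481, the other named sites without a call, had SDs of 17.7 to 35.6 percentage points in oocytes, 1.23 to 2.35 in AMY and 1.69 to 24.2 in PFC, the highest PFC value being at 7168464, where PFC 29 stood at 99.3%. Single samples decided 3 of them, which were called lower against both regions without sample 169 or 166 (7168465, adjusted p = 0.0174 to 0.0414), without 1-7b or 1-0b (7168477, 0.0184 to 0.0666) and without 163 or 170 (7168481, 0.0202 to 0.0509) in the exact test. At 7168466 oocytes were lower, with a median of 0.3% against 15.8% in PFC and 17.9% in AMY (adjusted p = 0.0214 and 0.00993, exact Mann-Whitney U test). At 7168479 they were lower on ranks, with a median of 0.2%, though sample 165 raised the mean to 12.3% against 4.52% in PFC and 6.20% in AMY. Further along, 7169220 was at 1.27% ± 1.44 in 9 oocyte samples, and no sample exceeded 3.8%, against 9.79% ± 4.19 in PFC and 9.68% ± 1.45 in AMY (adjusted p = 0.000121 and 8.07e-05, exact Mann-Whitney U test).

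The Ankrd28 site that was higher in oocytes, 7168727, was measured in 3 control samples, which gave 99.4% of 1677 reads (1-8b), 99.9% of 3874 (168) and 100% of 4015 (166). PFC samples ran from 3.1% to 27.7% and AMY samples from 1.2% to 32.8% (adjusted p = 0.0185 and 0.0116, exact Mann-Whitney U test). With 1 read as the minimum, 11 oocyte samples enter and the direction turned, the medians then being 6.0 points under PFC and 12.2 under AMY (adjusted p = 0.693 and 0.377 in the exact test), so the higher call rests on 3 samples. One brain library resembled the oocytes: PFC 29 had 99.3% at 7168464 and under 1% at the other 10 of the first 11 sites, on 456 to 478 reads, whereas every other PFC sample had 9 to 11 of these sites at 1% or more.

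The number of reads behind a level moved with the level itself in oocytes. Most sites had at least a few reads in most oocyte samples, and over the pooled reads of samples with 1 to 49 reads the levels followed the brain. At the glutamine to arginine site of Gria2, 165 of 167 such reads were edited (98.8%, brain 99.9%). At the 2 Htr2c sites named above, 63.3% of 196 and 78.3% of 189 reads were edited, against brain means of 80.4% and 91.0%. At Commd2 5 of 30 reads were edited in the 3 samples under the minimum (16.7%), where the 10 samples above it gave 0.166% of 41546.

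Across 72 sites with at least 50 such reads and a sample of 1000 reads or more, Pearson's r with the brain mean was 0.947 for the samples with 1 to 49 reads and 0.557 for those with 1000 or more, as a description across sites that share libraries and amplicons. The median level over the 72 sites was 2.70% in the first and 0.334% in the second, with a brain median of 4.69%. What these few reads come from was not tested. They lie under the minimum used for every call above, but values on 50 to 99 reads, as at Grik2, Gabra3 and Gria3, sit close to it.

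**Figure D5:**
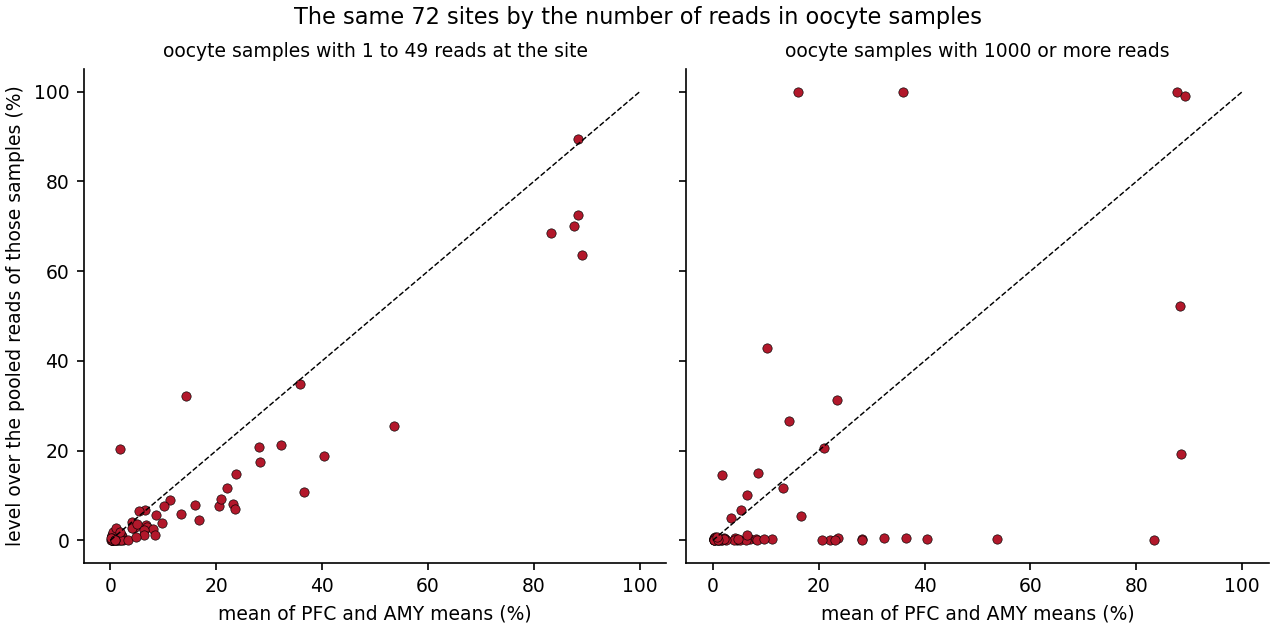
Editing level over the pooled reads of oocyte samples against the mean of the PFC and AMY means, at the same 72 sites, for samples with 1 to 49 reads at the site (left) and with 1000 or more (right); both axes are in percent and the dashed line marks equal levels. With few reads the points follow the line (r = 0.947), and with many reads most lie near 0% (r = 0.557).

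Pooling control and PRS oocytes did not mix levels that the test could tell apart. Of 36 sites with at least 3 samples in each group, the exact Mann-Whitney U test called 0 at an FDR of 0.1, and 0 had an unadjusted p under 0.05, the smallest being 0.107. The permutation test of means also called 0. With 3 to 7 samples in a group this leaves differences undetected rather than absent. Pum2 was in both groups above the PFC: each control and each PRS oocyte sample exceeded the highest PFC sample.

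Positions outside the study's table gave a measure of the background of G. Of the 33 listed, 0 had 50 reads in an oocyte sample and 4 in any brain sample. At the 2 with reads in at least 20 brain samples, both in Htr2c, no sample exceeded 0.0327% on a median of 3039 reads. The oocyte levels of 0.1% to 0.4% at the low sites are above that value, but it comes from 1 amplicon that oocytes lacked, so whether those levels are editing was not tested.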

How the data were processed

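RNA from oocytes and brain was amplified by microfluidic multiplex PCR and sequenced (mmPCR-seq). The authors combined paired reads and mapped them to rn4 with BWA, and SAMtools is named in the submitters' processing notes. The deposited files hold, per listed site, counts of reads and of edited reads, and the editing level as a fraction that the authors computed as edited over all reads. Sites under 50 reads remain in those files and were set aside here. Levels are printed as percent. The other 49 samples of the series were not used here.

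A site needed 50 reads in 3 samples of each tissue. Tests were two-sided Mann-Whitney U tests, exact over every split with mid-ranks, adjusted by Benjamini-Hochberg over all 61 sites (FDR 0.1), after the study's methods. The direction of a call is that of the ranks. Named were recoding sites called against both regions, the 10 other called sites with the largest difference in means, called sites higher in oocytes, 6 uncalled sites with a mean of 5% or more and the most oocyte samples, and 6 unmeasured neuronal sites. Further sites (Gabra3, the uncalled Grik2 sites, Cadps, Cacna1d, Mad2l1 at 96385687 and 5 other 3′ UTR genes) were chosen after their values were seen. The samples and gene lists were chosen with earlier results of these data known. Some named sites are not reported here. The steps were tested on simulated data.

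The Wilson 95% interval of a 50% level on 50 reads is 36.6% to 63.4%, and 0 edited of 50 reads allows a level of up to 6.0% (3 reads). No molecular identifiers are described for these libraries, so such bounds hold for counting error alone. Gene names are those of the study's table. Alternatives changed the read minimum, the test, the FDR, the sites and the samples, and 2 of them (without oocyte samples with over 10% neuronal reads, without the 2 oocyte libraries numbered apart from the other 11) were chosen after seeing the data. The work was done in Python 3.11.15 (pandas 2.3.3, numpy 2.4.6), with tests from scipy 1.17.1 and plots from matplotlib 3.10.9.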

Additional observations from a re-analysis of the deposited data

Results flagged for a closer look

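Among the 17 named sites with 4 to 10 oocyte samples, 7 had a sample whose gap to the others exceeded Dixon's critical value. That value gives about 1 in 20 by chance only for independent values of a normal distribution. These levels are bounded at 0%, partly tied and partly from shared reads, so the 7 cannot be set against that rate. At Ankrd28 these were sample 169 at 97.8% (7168465), sample 1-7b at 50.3% (7168478) and sample 165 at 97.6% (7168479). Kcnma1 had sample 4-2s at 97.3%, and Igf2 had sample 170 at 5.9% on 51 reads. Son at 31628548 and Commd2 each had sample 166 highest, at 0.3% and 0.4%, which is a small gap on a narrow range.

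At 3 sites with too few oocyte samples for a test, a single sample lay above every brain sample. Usp29 at 65275941 was at 100% of 212 reads in sample 1-8b, against 10.3% to 25.5% in brain. In the 5′ UTR of Adarb1, the gene of the editing enzyme ADAR2, sample 163 gave 99.9% of 6141 reads at 11709472 and 100% of 6187 at 11709486, against brain ranges of 21.1% to 41.4% and 82.4% to 99.4%. In the same sample the neighbouring 11709485 was at 0.2% of 6137 reads, against 19.2% to 34.8%. The study reports that it found no mRNA of this editing enzyme or of Adar in oocytes. Sample 163 is among the oocyte samples with many neuronal reads, at 10.4%. At 11709486 the other oocyte samples had at most 20 reads each. Which cells the reads of sample 163 came from was not tested.

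At 2 tested sites with low levels, control and PRS oocytes lay on opposite sides of the brain mean, a difference that was not tested. Isoc1 had 0.7% in 2 control samples (mean) and 0.15% in 2 PRS samples around a brain mean of 0.241%, a gap of 0.55 points. Nova1 at 66199099 had 0.4% in 2 control and 0.0667% in 3 PRS samples around 0.235%, a gap of 0.33 points.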

How the results depend on the processing

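The counts of sites called held within 1.5 times, with more lower than higher calls, for the permutation test of means, a minimum of 200 reads, an FDR of 0.05, the study's table of sites, sites of 1% or more and the removal of the 2 oocyte libraries numbered apart from the other 11, an alternative chosen after seeing the data. Of the 31 sites called against both regions, 25 of the 28 still tested were kept at 200 reads and 23 of 31 in the permutation test. With no minimum of reads, 148 sites were tested and 116 were called against PFC, 120 against AMY, 124 against both pooled and 111 against each region. Smaller sets of samples gave fewer calls: control samples alone gave 14, 20, 23 and 12 in that order, and PRS samples alone gave 18, 19, 26 and 16. Within the set that holds most oocytes, 17 were called against AMY, the only brain region there, and hence also against both pooled. Without the 4 oocyte samples with many neuronal reads, also chosen after seeing the data, 23 were called against AMY and 26 against both pooled. Leaving out 1 sample at a time gave 28 to 35 calls against PFC, 29 to 36 against AMY, 31 to 41 against both pooled, and 27 to 33 against each region. For stress in oocytes it gave 0.

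The named sites that changed direction were Kcnma1 and Ankrd28 sites with 1 or a few very high samples. In the permutation test of means, oocytes were higher at Kcnma1 by 12.5 points (PFC) and 10.9 (AMY), at 7168465 by 8.55 and 7.03, at 7168477 by 7.11 and 5.00, at 7168478 by 2.65 and 0.79, at 7168479 by 7.83 and 6.15, and at 7168464 by 6.49 (AMY), all with adjusted p above 0.4 in that permutation test. With pooled reads they were higher by 1.21 at Kcnma1 (PFC), by 10.4 and 10.7 at 7168464, 4.18 and 3.41 at 7168465, 2.88 and 0.64 at 7168477, 5.4 and 4.85 at 7168478, 1.69 at 7168479 (PFC) and 1.01 at 7168481 (PFC). In control samples alone the medians were higher by 18.9 and 21.8 at 7168464, 8.4 and 6.9 at 7168465, and 6.4 and 4.9 at 7168478. With no minimum of reads the differences were -1.7 and -2.2 points at 7168445 and -6.0 and -12.2 at 7168727. The cause was not tested. No paired analysis was possible because the replicate names are not shared between groups.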
